A study of Danio rerio with 4 samples.

Results

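Genes of the core splicing machinery and its main regulators were examined in whole zebrafish embryos at 2 dpf. Their members were the rows of the deposited table whose symbol begins with *srsf* and a number, *hnrnp*, *snrp* followed by one of the letters of the snRNP proteins, or *sf3a* and *sf3b*. A minimum of 10 normalized counts in at least 2 of the 4 libraries was required. All 61 rows with such symbols passed this filter, out of 31388 rows in the table, of which 14674 passed it. They comprised 17 rows for SR proteins, 23 for hnRNP proteins, 12 for snRNP proteins and 9 for SF3 subunits.

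Splicing removes introns from pre-mRNA in the nucleus. The spliceosome is built from small nuclear ribonucleoproteins (snRNPs), in which a ring of Sm proteins holds each small nuclear RNA, and the SF3a and SF3b complexes belong to the U2 snRNP, which recognizes the branch point. SR proteins, named for their arginine-serine repeats, mostly bind exons and favour their inclusion, whereas hnRNP proteins coat nascent transcripts and often favour skipping. Zebrafish carry duplicated copies of many of these genes, written with a final a or b.

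RNA of control embryos (genotype WT, 2 libraries) was compared to that of MZ*tulp3* embryos (2 libraries), which lack Tulp3 from both the maternal and the zygotic genome through the CRISPR/Cas9-induced allele *uf3*. Tulp3 is an adapter that brings membrane proteins into cilia. For sequencing, the study took MZ*tulp3* embryos with severe ventral body curvature, so genotype and this selection cannot be told apart. The mutant line was kept in *li1Tg* on the AB/TL background, and which of the AB/TL and *li1Tg* strains gave the control embryos was not given in the sources used here. The RNA was poly(A)-enriched and came from whole embryos. The number of embryos per library was not given in the sources used here.

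Between 22589725 and 29735214 reads were counted on genes per library, and the 13 mitochondrially encoded genes took 40.95% to 71.05% of them, with 95% Wilson half-widths up to 0.0206 percentage points. These intervals cover counting error only. The *tulp3* gene itself had 36 reads in control replicate 2 and 0 in the other 3 libraries, which allows up to 3 reads in each, so the reads of the targeted gene did not check the labels. The values below are normalized counts, that is reads divided by 1 size factor per library. A log2 fold change is the difference of the group means of log2(normalized count + 2), MZ*tulp3* minus control. It was tested with limma's moderated test and Benjamini-Hochberg adjustment over the 14674 genes, at a threshold of 0.05. Whole embryos mix all tissues, so a lower value cannot tell fewer cells of a type from less RNA per cell.

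Several abundant hnRNP and SR genes had lower counts in MZ*tulp3* embryos, among them *hnrnpm*, *hnrnpa0b*, *hnrnpr*, *srsf1a* and *srsf11*, with ratios of geometric means between 42.7% and 51.5% of control. The less abundant *hnrnpa3*, with a mean of 254 normalized counts, was lower still. The members with the highest means, *hnrnpa0l* (13137) and *hnrnpaba* (11044), had higher counts in MZ*tulp3* embryos. The value of *hnrnpa0b* is uncertain, as its record overlaps that of *hnrnpa0l* in the annotation of another build. Their summed counts had a log2 fold change of -0.13. By limma 0 members were past the threshold, as were 0 of all genes tested (0%), with 1873 genes (12.8%) at an unadjusted p under 0.05. On recovered reads edgeR likewise called 0 genes, while 1427 (9.72%) had an unadjusted edgeR p under 0.05. In contrast, DESeq2 called 355 genes of the whole table and limma-voom 13. At an unadjusted p under 0.05, 10 members were lower in MZ*tulp3* embryos (16.4%, against 7.94% of all genes tested) and 0 were higher (against 4.82%). Among the genes with a mean of at least 500 normalized counts the background was higher, at 14.1%, and 9 of the 47 members in that range were lower (19.1%). For higher values it was 9.63%, and 0 of the 47 members. Of these 10 members, 6 encode hnRNP proteins, 2 SR proteins, 1 an Sm protein and 1 a subunit of SF3b.

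**Figure D1:**
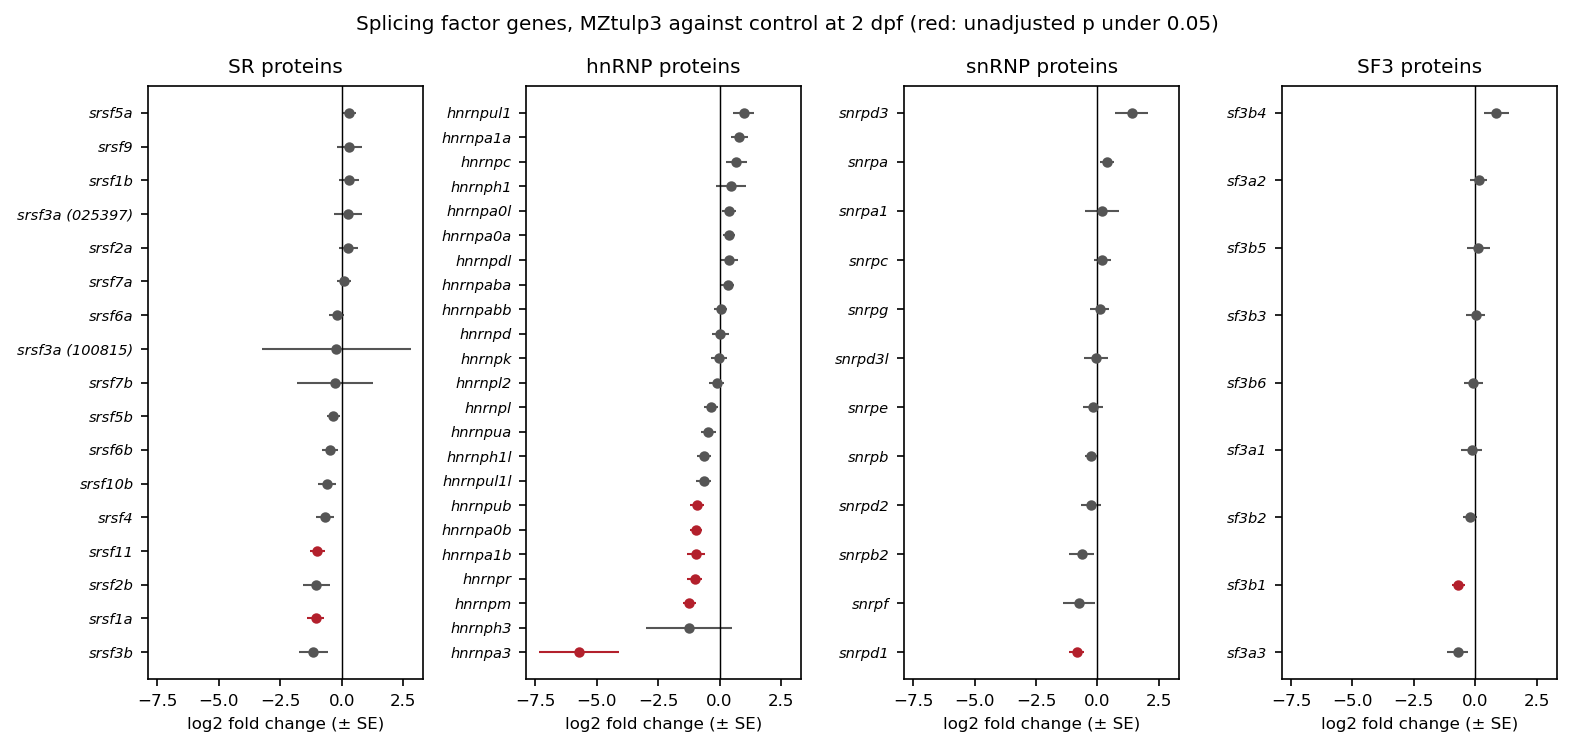
Log2 fold change (MZ*tulp3* minus control, x axis) of the 61 members in 4 panels by family, with bars for the standard error of the limma fit. Red points have an unadjusted p under 0.05, and all 10 of them lie below 0.

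Both MZ*tulp3* libraries lay below both control libraries for 21 members (34.4%, against 23.3% of all genes tested, and against 28.7% of the genes with a mean of at least 500, where it was 19 of 47 members, 40.4%). Both lay above for 14 members (23%, against 20% of all genes), or 10 of the 47 abundant ones (against 25.9%). Log2 fold changes of -1 or less were seen for 7 members (background 26.7%) and of 1 or more for 1 member (background 18.9%). The median standard error was 1.09 over all genes against 0.36 over the members, so these backgrounds are not matched for spread. Over the 61 members the median log2 fold change was -0.18, 36 (59%) being lower and 25 higher, beside a median of -0.09 over all genes, of which 52.8% were lower. Scaling to reads outside the mitochondrial genes moved the median of all genes by about the same amount as that of the members, to -0.29 and -0.39, and 45 members (73.8%) were then lower, since 9 with values near 0 changed sign. Without control replicate 2 the median of the members was 0.024 and that of all genes -0.175, so the members then lay above all genes.

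Summed over the 61 members, normalized counts were 122047 and 149618 in control against 110258 and 110334 in MZ*tulp3*. The gap lay in the 10 members with an unadjusted p under 0.05, at 45652 and 60902 in control against 27308 and 24981 in MZ*tulp3*. The other 51 summed to 76395 and 88716 in control against 82950 and 85353 in MZ*tulp3*, and there the groups overlapped. The 10 were picked by these same values, so the split is a description. As a share of the reads outside the mitochondrial genes, the members took 1.27% and 1.56% in control against 0.899% and 1.09% in MZ*tulp3* (95% Wilson half-widths up to 0.00695 percentage points). These intervals cover counting error only, not the spread between libraries. With scaling to the same reads, the median log2 fold change was -0.29 over all genes and -0.39 over the members.

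Among the hnRNP genes, *hnrnpm*, whose product regulates alternative exons, stood out with the smallest p of all members. It stood at 10199 and 12517 normalized counts in control against 4991 and 4654 in MZ*tulp3*. The MZ*tulp3* libraries lay close together and well below control. The log2 fold change was -1.23 (standard error 0.25), or 42.7% of control, with an adjusted p of 0.379 by limma, and DESeq2 called it lower (adjusted p = 0.00432). It was also called by limma when at least 10 normalized counts were required in every library (adjusted p = 0.0354), and without any single library its log2 fold change lay between -1.38 and -1.08.

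DESeq2 called 3 members in all, each lower (4.92%, against 1.47% of the genes tested), and 0 higher (against 0.838%). All 3 were hnRNP genes. The backgrounds of DESeq2 calls were not limited to abundant genes, among which an unadjusted limma p under 0.05 was more frequent. The main limma test and edgeR called 0 of the 3. On simulated counts with a high spread between replicates many DESeq2 calls were false. Whether the 3 genes have so high a spread was not tested. The second was *hnrnpa3*, a member of the A/B group, with 450 and 526 normalized counts in control against 40.1 and 0 in MZ*tulp3*. In reads these were 467 and 797 against 35 and 0. Both MZ*tulp3* libraries were far below control, and the count of 0 allows up to 3 reads. Its log2 fold change was -5.73 ± 1.63 SE (limma adjusted p = 0.379 and 0.0111 by DESeq2), and it was -3.54 without MZ*tulp3* replicate 2. In the RefSeq annotation of another build (GRCz12tu), its record overlaps that of *nfe2l2a*, and 16 of the 61 rows overlap some other protein-coding record there, among them *hnrnpaba* (with *nme5*), *hnrnpul1l* (with *lrwd1*) and *srsf1a* (with *rab34a*). All 61 rows were matched to this annotation by gene ID, and 0 lay on the chromosome that holds *tulp3*. Counting by strand was not stated in the sources used here.

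The third was *hnrnpa0b*, another A/B-type RNA-binding protein. It had 9774 and 13024 normalized counts in control against 5659 and 5953 in MZ*tulp3* (log2 fold change -0.96 ± 0.26 SE, limma adjusted p = 0.379 and 0.0436 by DESeq2). The neighbouring *hnrnpa0l* had 9765 and 13138 in control against 14789 and 14856 in MZ*tulp3* (log2 fold change 0.39 ± 0.27 SE, limma adjusted p = 0.592). The records of these neighbours overlap in the GRCz12tu annotation, so reads may have been split between them and both values are uncertain. Their sum was 19539 and 26162 in control against 20447 and 20810 in MZ*tulp3*, a log2 fold change of -0.13, with the MZ*tulp3* libraries inside the range of the control libraries.

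The remaining lower hnRNP genes were not called by any test of single genes at the threshold. *hnrnpr*, a relative of *syncrip*, had 3449 and 3732 normalized counts in control against 2257 and 1419 in MZ*tulp3* (log2 fold change -1.003 ± 0.31 SE, limma adjusted p = 0.379, and -0.67 without MZ*tulp3* replicate 2). *hnrnpub*, a copy of the gene for the chromatin-bound scaffold protein hnRNP U, had 3929 and 5854 in control against 2701 and 2389 in MZ*tulp3* (log2 fold change -0.92 ± 0.29 SE, limma adjusted p = 0.379). For *hnrnpr* and *hnrnpub* the groups did not overlap. The relatives of *hnrnpr* outside the members, *syncrip* (log2 fold change 0.65 ± 0.35 SE) and *syncripl* (1.23 ± 0.67 SE), were higher without overlap (background 20%). *hnrnpaba*, among the hnRNP genes with the most reads, had 9711 and 9806 normalized counts in control against 11120 and 13540 in MZ*tulp3* (log2 fold change 0.33 ± 0.25 SE, limma adjusted p = 0.624). Of the 23 hnRNP genes 13 were lower and 10 higher, with a median log2 fold change of -0.12. In the main fit the family as a whole thus lay near the median of all genes.

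**Figure D2:**
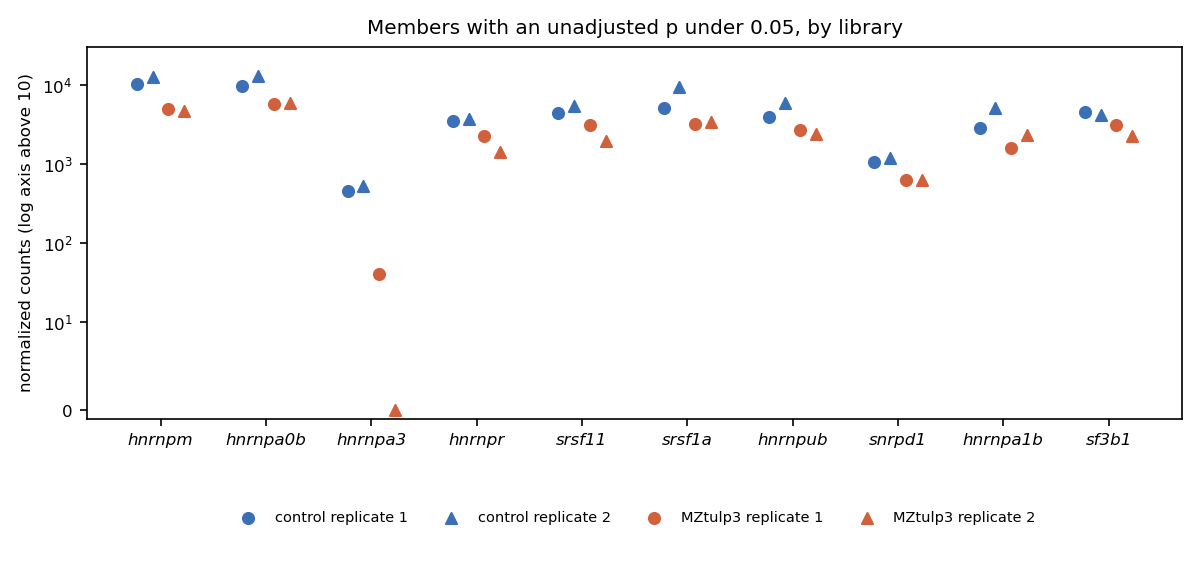
Normalized counts (y axis, logarithmic above 10) in each of the 4 libraries for the 10 members with an unadjusted p under 0.05, ordered by p. Blue symbols are control and orange symbols MZ*tulp3* libraries, and for every gene shown both orange symbols lie below both blue ones.

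The SR family had the lowest median of the families, -0.28 beside -0.09 over all genes, with 11 of 17 rows lower and 6 higher. Its median was -0.418 by edgeR and -0.431 by DESeq2, beside 0.00026 and 0.00899 over all genes. Without control replicate 2 the SR median was -0.185 and that of all genes -0.175, so the family then lay near all genes. The groups did not overlap for 8 lower rows and for 3 higher ones, *srsf1b*, *srsf5a* and *srsf7a*. Backgrounds were 23.3% and 20% of all genes, or 28.7% and 25.9% of genes with a mean of at least 500. With scaling to nuclear reads the log2 fold change of *srsf7a* turned from 0.086 to -0.13. *srsf1a*, a copy of the gene for the founding SR protein SRSF1, had 5115 and 9433 normalized counts in control against 3236 and 3416 in MZ*tulp3*. The control libraries differed more from each other than the lower of them did from MZ*tulp3*. Its log2 fold change was -1.06 ± 0.33 SE (limma adjusted p = 0.379 and 0.0551 by DESeq2), and it was -0.62 without control replicate 2. *srsf11*, which encodes an SR-related protein of p54 type, had 4420 and 5415 in control against 3100 and 1938 in MZ*tulp3* (log2 fold change -0.9965 ± 0.31 SE, limma adjusted p = 0.379), or -0.66 without MZ*tulp3* replicate 2.

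Lower values that were less certain came from *srsf3b*, *srsf2b* and *srsf4*. For *srsf3b* they were 1254 and 1142 in control against 1013 and 281 in MZ*tulp3*, so the log2 fold change of -1.16 ± 0.59 SE (limma adjusted p = 0.464) came mostly from 1 library and was -0.24 without MZ*tulp3* replicate 2. *srsf2b*, a copy of the gene for SC35, had 365 and 452 in control against 285 and 137 in MZ*tulp3* (log2 fold change -1.03 ± 0.56 SE, limma adjusted p = 0.492, and -0.51 without MZ*tulp3* replicate 2). *srsf4* had 1911 and 3883 in control against 1740 and 1671 in MZ*tulp3* (log2 fold change -0.67 ± 0.37 SE, limma adjusted p = 0.497), and without control replicate 2 it was -0.16. The groups did not overlap for these 3 genes, but a single library set much of each difference.

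The symbol *srsf3a* stood on 2 rows. Identifier ENSDARG00000025397 was read 213 and 846 times in control against 332 and 374 in MZ*tulp3*, and ENSDARG00000100815 was read 263 and 0 times against 164 and 0. The latter was read in both libraries numbered 1 and at 0 in both numbered 2, so this row did not follow genotype. Both rows together gave 458 and 559 normalized counts in control against 568 and 441 in MZ*tulp3*, a log2 fold change of -0.015 with overlapping groups.

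The Sm ring that surrounds each small nuclear RNA holds SmB, SmD1, SmD2, SmD3, SmE, SmF and SmG, and their genes differed in direction. *snrpd1* had 1050 and 1183 normalized counts in control against 617 and 624 in MZ*tulp3* (log2 fold change -0.84 ± 0.31 SE, limma adjusted p = 0.379). It was between -0.93 and -0.76 without any single library. *snrpd3* went the other way, with 76.1 and 167 in control against 317 and 283 in MZ*tulp3* (log2 fold change 1.39 ± 0.68 SE, limma adjusted p = 0.446), or 0.84 without control replicate 1. The row *snrpd3l* had a higher mean, at 291 and 501 in control against 400 and 338 in MZ*tulp3*. Its groups overlapped (log2 fold change -0.055 ± 0.47 SE, limma adjusted p = 0.982). *snrpd3* and *snrpd3l* were not summed, so a change of both together was not tested. The Sm genes *snrpb*, *snrpd2*, *snrpe*, *snrpf* and *snrpg* had log2 fold changes between -0.75 and 0.086, with overlapping groups except for *snrpb*.

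In *snrpf*, control replicate 2 alone was high, at 976 normalized counts against 330 in control replicate 1, 216 in MZ*tulp3* replicate 1 and 521 in MZ*tulp3* replicate 2 (log2 fold change -0.75 ± 0.66 SE, limma adjusted p = 0.676). *snrpb*, the snRNP gene with the most reads, had 4567 and 4004 in control against 3293 and 3960 in MZ*tulp3* (log2 fold change -0.24 ± 0.25 SE, limma adjusted p = 0.734). *snrpd2* had 878 and 1748 in control against 1172 and 915 in MZ*tulp3*, so the MZ*tulp3* libraries lay between the control libraries (log2 fold change -0.26 ± 0.40 SE, limma adjusted p = 0.839). Direction was thus unsettled for most of the ring.

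Of the proteins particular to U1 and U2 snRNPs, *snrpa*, the gene of the A protein of U1 snRNP, had 913 and 918 normalized counts in control against 1284 and 1132 in MZ*tulp3* (log2 fold change 0.40 ± 0.30 SE, limma adjusted p = 0.616). *snrpb2*, the gene of the U2 protein B″, had 585 and 704 in control against 652 and 258 in MZ*tulp3* (log2 fold change -0.64 ± 0.52 SE, limma adjusted p = 0.641), and the difference came from MZ*tulp3* replicate 2 alone. Over the 12 snRNP rows 7 were lower and 5 higher, with a median log2 fold change of -0.12. It became 0.20 without control replicate 2, beside -0.175 over all genes.

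The SF3a and SF3b subunits clamp the U2 snRNP to the branch point. *sf3b1*, which encodes the largest SF3b subunit, had 4461 and 4145 normalized counts in control against 3113 and 2267 in MZ*tulp3* (log2 fold change -0.69 ± 0.27 SE, limma adjusted p = 0.38). Both MZ*tulp3* libraries were below both control libraries. The subunits with the next smallest p-values differed in direction. *sf3b4* had 456 and 213 in control against 650 and 485 in MZ*tulp3* (log2 fold change 0.85 ± 0.51 SE, limma adjusted p = 0.536, and 0.30 without control replicate 2). *sf3a3*, whose groups overlapped, had 833 and 1582 in control against 546 and 890 in MZ*tulp3* (log2 fold change -0.72 ± 0.43 SE, limma adjusted p = 0.54, and -0.26 without control replicate 2).

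*sf3b2* showed little spread, with 1759 and 1722 normalized counts in control against 1594 and 1408 in MZ*tulp3* (log2 fold change -0.22 ± 0.27 SE, limma adjusted p = 0.783). The other SF3 genes, *sf3a1*, *sf3a2*, *sf3b3*, *sf3b5* and *sf3b6*, had log2 fold changes between -0.15 and 0.13. The median over the 9 SF3 genes was -0.09 in the main fit, the same as over all genes to 2 decimals. It was -0.126 by edgeR and -0.115 by DESeq2, beside 0.00026 and 0.00899 over all genes. Without control replicate 2 it was 0.018, beside -0.175 over all genes.

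**Figure D3:**
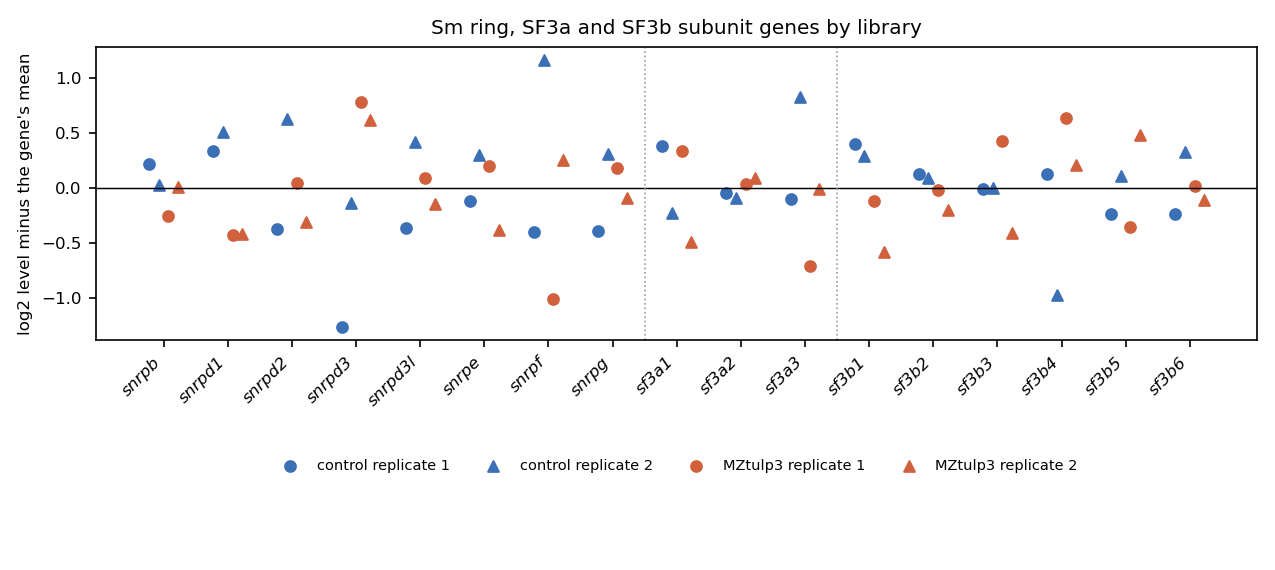
Log2 level of each Sm ring, SF3a and SF3b gene in each library, relative to the mean of that gene over the 4 libraries (y axis), with dotted lines between the complexes. The MZ*tulp3* libraries (orange) are below control (blue) for *snrpd1* and *sf3b1* and above control for *snrpd3* and *sf3b4*, while most other subunits overlap.

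Paralogous copies of a splicing gene were compared next, since the ratio of copies within a library does not depend on how libraries are scaled. Copies were paired where their symbols end in a and b, and pairs of symbols with and without a final l were added after the values had been seen. The ratios are of counts not corrected for gene length, so only their change between groups is read. The fold changes of the copies had opposite signs in 9 of the 13 member pairs (69.2%, against 44.4% of the 1605 such pairs in the whole table). The ratio did not overlap between the groups for 10 of the 13 member pairs (76.9%, against 42%). Backgrounds for pairs were not limited to abundant genes, among which single genes were more often without overlap. In 6 pairs (46.2%, against 8.22%) one copy was lower and the other higher in MZ*tulp3* embryos, each without overlap between the groups. Of these, 4 were among the 9 pairs ending in a and b. They were *hnrnpa0a* and *hnrnpa0b*, *hnrnpa1a* and *hnrnpa1b*, *srsf1a* and *srsf1b*, and *srsf5a* and *srsf5b*. The others, with and without a final l, were *hnrnph1* and *hnrnph1l*, and *hnrnpul1* and *hnrnpul1l*. Unlike the ratios, the sign of each copy and its overlap between the groups depend on how libraries are scaled. With scaling to nuclear reads *hnrnpabb*, *hnrnpd* and *srsf7a* changed sign. The counts of pairs with opposite copies were not repeated with that scaling.

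The smallest p of these 6 pairs in limma's test of ratios belonged to the hnRNP A1 pair. Its difference in log2 ratio was 1.77 with all libraries but 0.93 without control replicate 2. Without that library it lay below those of the A0 (1.13) and *hnrnpul1* (1.14) pairs. The A1 protein shuttles between nucleus and cytoplasm and represses splice sites. *hnrnpa1a* had 1615 and 910.5 normalized counts in control against 2062 and 2178 in MZ*tulp3* (log2 fold change 0.80 ± 0.35 SE, limma adjusted p = 0.395). *hnrnpa1b* had 2805 and 5073 in control against 1595 and 2320 in MZ*tulp3* (log2 fold change -0.97 ± 0.36 SE, limma adjusted p = 0.379), or -0.54 without control replicate 2. The ratio of *hnrnpa1a* to *hnrnpa1b* was thus 0.576 and 0.18 in control against 1.29 and 0.939 in MZ*tulp3*. Both MZ*tulp3* ratios were above both control ratios, and the control ratios were themselves far apart.

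For the hnRNP A0 pair the ratio of *hnrnpa0a* to *hnrnpa0b* was 0.258 and 0.194 in control against 0.629 and 0.505 in MZ*tulp3*, with *hnrnpa0a* itself at 2524 and 2526 normalized counts in control against 3560 and 3003 in MZ*tulp3*. The overlap of *hnrnpa0b* with *hnrnpa0l* touches this ratio as well. The ratio of *hnrnpul1* to *hnrnpul1l*, which encode hnRNP U-like proteins, was 0.225 and 0.115 in control against 0.509 and 0.481 in MZ*tulp3*. The ratio of *srsf1a* to *srsf1b* was lower in MZ*tulp3* embryos, at 14.97 and 26.5 in control against 6.92 and 8.7. For *srsf5a* and *srsf5b* it was 0.802 and 0.824 in control against 1.35 and 1.23 in MZ*tulp3*, with the replicates of each group close together.

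Across the 1605 pairs, limma's test on the log2 ratio, chosen after the values had been seen, called 23 pairs (1.43%), of which 2 were member pairs. These were the A1 pair, with a difference of 1.77 in log2 ratio (standard error 0.39, adjusted p = 0.00209), and the A0 pair, with 1.33 (standard error 0.34, adjusted p = 0.015). Neither call held with a pseudocount of 0.5 in place of 2 (adjusted p = 0.24 and 0.199 by limma), nor without control replicate 2 (differences of 0.93 and 1.13, adjusted p = 0.893 and 0.693 by limma) or without MZ*tulp3* replicate 1 (1.54 and 1.17, adjusted p = 0.0671 and 0.12 by limma). The A0 call was also lost without MZ*tulp3* replicate 2 (1.49, adjusted p = 0.138 by limma). Both differences stayed above 0 without any single library. The standard errors of this test came from a trend across pairs, not from the spread of each pair's own libraries. For the A1 pair the control log2 ratios were -0.80 and -2.48. On simulated pairs whose spread varied from gene to gene the few calls of this test were false. Without a model across pairs, an exact two-sided permutation test of 2 libraries against 2 cannot go below p = 0.333. RSEM divides reads that match several genes among them, so counts of near-identical copies are uncertain.

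**Figure D4:**
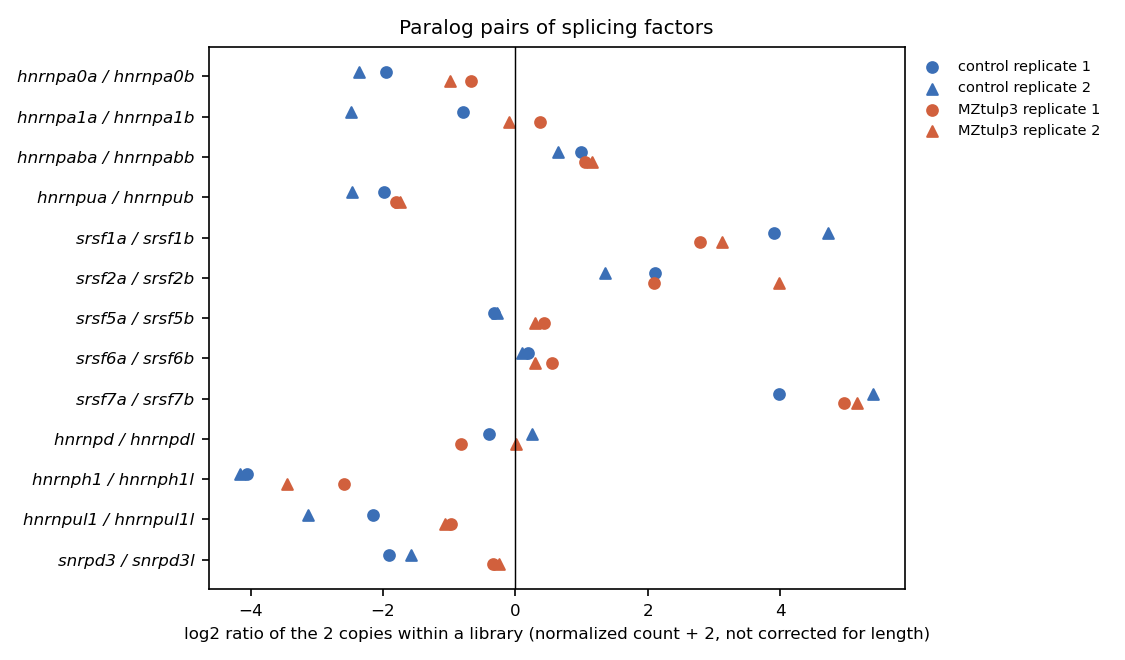
Log2 ratio of normalized counts of both copies within each library (x axis) for the 13 pairs of paralogous members. Control libraries are blue and MZ*tulp3* libraries orange, and the colours are apart in 10 of the 13 pairs, with the A1, A0, *hnrnpul1* and *snrpd3* pairs shifted to the right.

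Other genes of the splicing pathway were taken from a list of 183 symbols, with 169 passing the filter. The list had a median of -0.09 in log2 fold change in the main fit, as over all genes, with 93 lower and 76 higher. Its DESeq2 median was -0.0665, beside 0.00899 over all genes. By limma 0 passed the threshold, 19 were lower and 5 higher at an unadjusted p under 0.05 (backgrounds of 7.94% and 4.82%), and DESeq2 called 5 lower (background 1.47%) and 0 higher (background 0.838%). The smallest p belonged to *ewsr1a*, an RNA-binding protein of the FET family, with 5782 and 7073 normalized counts in control against 2846 and 2789 in MZ*tulp3* (log2 fold change -1.18 ± 0.25 SE, limma adjusted p = 0.379 and 0.0121 by DESeq2). All 4 FET genes of the list, *fus*, *ewsr1a*, *ewsr1b* and *taf15*, were lower without overlap (background 23.3%, or 28.7% of genes with a mean of at least 500), with log2 fold changes from -1.18 to -0.80. This grouping was made after the values had been seen.

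Next came *clk4a* and *clk4b*, which encode kinases that phosphorylate SR proteins. *clk4a* had 3064 and 2843 normalized counts in control against 1450 and 908 in MZ*tulp3* (log2 fold change -1.36 ± 0.32 SE, limma adjusted p = 0.379 and 0.0382 by DESeq2). *clk4b* had 2219 and 2102 in control against 1041 and 785 in MZ*tulp3* (log2 fold change -1.25 ± 0.29 SE, limma adjusted p = 0.379 and 0.0657 by DESeq2). All 4 Clk genes tested were lower without overlap (background 23.3%, or 28.7% of genes with a mean of at least 500). The Clk grouping was also made after the values had been seen. *clk2a* had a log2 fold change of -1.53 (adjusted p = 0.379 by limma and 0.0286 by DESeq2). For *clk2b* it was -2.83 (adjusted p = 0.407 by limma). The Srpk genes, which also encode kinases of SR proteins, went otherwise, with 0 of 3 tested lower without overlap. *srpk1b* (log2 fold change 4.01 ± 1.71 SE) and *srpk1a* (0.72 ± 0.79 SE) were higher without overlap (background 20%). *srpk1b* had 0.963 and 49.5 normalized counts in control against 190 and 204 in MZ*tulp3*. Its value in control replicate 1 was below 3 reads, so the size of its fold change is uncertain (2.96 by DESeq2). For *srpk3* (-0.61 ± 0.69 SE) the groups overlapped.

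Markers of neurons and epidermis differed between the groups beside these genes. Of 16 neuron markers tested, 15 were lower in MZ*tulp3* embryos, with a median log2 fold change of -1.22, and 11 were lower without overlap (background 23.3%, or 28.7% of genes with a mean of at least 500). Their summed normalized counts were 31108 and 45660 in control against 25297 and 17854 in MZ*tulp3*, and 0 of them were without reads in any library. All 22 epidermis markers were higher, 18 of them without overlap (background 20%, or 25.9% of genes with a mean of at least 500). Their median was 1.18, with summed counts of 210094 to 288668 in control against 534833 to 642700 in MZ*tulp3*. Markers of neural progenitors and dividing cells had a median of 0.40, with 18 of 24 higher, and those of yolk layer and liver 1.41 (20 of 21 higher). Summed skeletal muscle markers overlapped, at 613912 and 310204 in control against 843287 and 514886 in MZ*tulp3*. Their median was 0.56 with 17 of 21 higher, but 4 were lower and 2 higher without overlap, and DESeq2 called 3 lower and 0 higher. Summed erythrocyte markers overlapped too, at 14006 and 11528 in control against 8242 and 27404 in MZ*tulp3*, with a median of 0.38 and 0 of 12 without overlap. Control replicate 1 had 2 markers at 0 reads in the erythrocyte list and in the yolk layer and liver list, and the other lists had 0 markers at 0 in any library. The part of these markers in the values of the splicing genes was not tested.

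**Figure D5:**
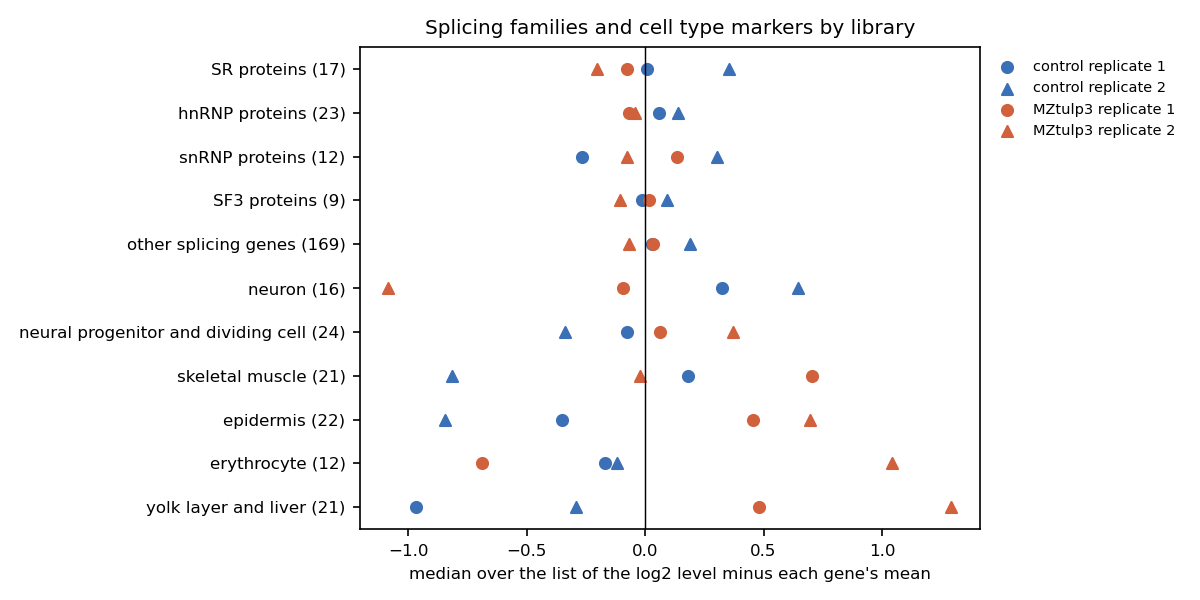
Median over each list of the log2 level relative to the mean of each gene (x axis) in the 4 libraries, for the splicing families, the other splicing genes and 6 lists of cell type markers, with the number of genes tested in brackets. The splicing families stay within 0.356 of 0. SR and hnRNP medians are lower in both MZ*tulp3* libraries (orange) than in both control libraries, and snRNP and SF3 medians overlap. The median over all genes tested, not plotted, is also lower in both MZ*tulp3* libraries (0.123 and -0.0099, against 0.138 and 0.167 in control). Neuron markers are lower in both too, at -0.09 in MZ*tulp3* replicate 1 and -1.08 in MZ*tulp3* replicate 2. Epidermis and yolk layer markers are higher in both MZ*tulp3* libraries.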

How the data were processed

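RNA of 2 control and 2 MZ*tulp3* libraries was processed by the authors with nf-core/rnaseq (TrimGalore!, STAR and RSEM on GRCz10) and DESeq2. The signal values they deposited are read counts divided by 1 DESeq2 size factor per library, although the column headers read count. All of them (100%) came out as whole reads again (within 1e-06 of a whole multiple, relative to its size). Size factors were 1.0388, 1.5146, 0.87336 and 0.84724. The authors also deposited regularized log2 values and their own fold changes and p-values, which were not used here.

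The main test was limma 3.58.1 in R 4.3.3 with a variance trend on log2(normalized count + 2), without a replicate term, over genes with at least 10 in 2 libraries. It took the place of a count test because the values are normalized. edgeR 4.0.16, DESeq2 1.42.0 and limma-voom ran on recovered reads. Other alternatives were TMM scaling, scaling to nuclear reads, pseudocounts of 0.5 and 10, no filter, a minimum of 10 throughout, replicate number as a block and leaving out each library. The gene tests and the test of paralog ratios were tried on simulated data with known changes. At a low spread between replicates they recovered most of them. At a high spread limma and edgeR made no calls, and a large share of the DESeq2 calls were false. The few calls of the ratio test were false where the spread varied from gene to gene. The gene simulations gave all genes the same spread, and which spread these data resemble was not tested. They therefore cannot settle how many DESeq2 calls are false here. Calls by DESeq2, which the main limma test and edgeR did not make, and by the ratio test are taken as weak evidence. The labels call the replicates biological but name no separate clutches, so p-values of the gene tests measure only the spread between libraries, which may be technical. Those of the ratio test rest on a trend of that spread across pairs, not on the spread of each pair's own libraries.

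Members and lists were chosen with earlier results of these data known. Named by rule were, in each family, the 5 members (3 for SF3) with the smallest p, the 2 with the highest mean, paralog pairs, and 3 other splicing genes with the smallest p. Further genes, among them the remaining FET, Clk and Srpk genes, were named outside this rule.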

Additional observations from a re-analysis of the deposited data

How the results depend on the processing

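The count of genes called, 0 by limma, was 355 by DESeq2, 13 by limma-voom, 112 with a minimum of 10 throughout all libraries and 329 with the replicate number as a block. The block also called *hnrnpm*, *hnrnpa3* and *srsf1a* (adjusted p = 0.00873, 0.0373 and 0.0311 by limma), but the libraries share only a number: the labels tie no 2 of them together. Deviations of same-numbered libraries from their group means correlated at -0.00286 across all genes and at 0.67 across the members. The members include the *srsf3a* row ENSDARG00000100815, read 263 and 0 times in control against 164 and 0 in MZ*tulp3*. A row so split by replicate number weighs heavily on the 0.67, and the correlation without it was not computed. With the block the test of the A1 ratio kept its call (adjusted p = 0.0113 by limma) and that of the A0 ratio did not (0.0672). The count of members lower at an unadjusted p under 0.05 was between 9 and 13 over the other settings, and between 2 (without MZ*tulp3* replicate 2) and 9 without 1 library, with 3 without control replicate 2. The count of higher members, 0, was 2 by limma-voom, with a pseudocount of 10, with 10 in every library and with the block, 1 without a filter, and 0 to 2 without 1 library.

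With scaling to nuclear reads, medians were -0.39 for the members, -0.48 for SR, -0.34 for hnRNP and -0.31 for SF3 proteins, -0.31 for other splicing genes and -0.29 for all genes. The hnRNP median was -0.18 by edgeR, -0.17 by DESeq2 and -0.019 with 10 in every library, and that of all genes 0.00026, 0.00899 and 0.015. Without 1 library in turn, medians ran from -0.22 to 0.024 (members), -0.46 to -0.19 (SR), -0.21 to -0.072 (hnRNP) and -0.33 to 0.20 (snRNP). They ran from -0.31 to 0.018 (SF3), -0.22 to -0.033 (other splicing genes) and -0.20 to 0.048 (all genes). Of the named members, *snrpb2* (-1.31 to 0.022), *snrpf* (-1.53 to 0.024) and *snrpd2* (-0.75 to 0.24) changed direction without 1 library, as did the ratios of the *srsf7a* pair (-0.34 to 1.07) and the *hnrnpd* pair (-0.74 to 0.075). The causes were not tested. Members with few reads, such as *srsf7b* and *hnrnph3*, had standard errors above 1.5, so depth limits what they show.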
